A study of Mus musculus with 3 samples.

Results

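The genes Tcf7, Lef1 and Ctnnb1, which encode TCF-1, LEF-1 and beta-catenin, were examined at their mm10 RefSeq positions for peaks of H3K27ac, the acetylation of histone H3 at lysine 27 that marks active promoters and enhancers. They are 3 of 21887 protein-coding genes, and the rule lists them by name, though with earlier results of these data known. All cells came from thymus of wild-type C57BL/6J mice aged 5 to 7 weeks and were sorted as double-negative T cells, which lack CD4 and CD8. The labels give them as CD25+ and CD44-/+. Chromatin was bound first with an antibody to histone H3 and then with one to H3K27ac, and 2 replicates (1 peak list each) were compared with no treatment or mutant beside them. The input sample was not analysed here, so nothing measured in the same way gives a background, and whether the replicates came from separate mice is not stated in the labels.

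TCF-1 and LEF-1 are sister factors with a nearly identical HMG box, a DNA-binding domain that recognises the letters CTTTGAA or CTTTGAT. On their own they recruit TLE corepressors, and beta-catenin turns them into activators when Wnt ligands stop the destruction complex from marking it for degradation. TCF-1 is switched on by Notch signals in the earliest thymic progenitors and is needed to start the T cell programme, while LEF-1 is partly redundant with it. Beta-catenin also links cadherins to the cytoskeleton at cell contacts and is made in most cell types.

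The 3 genes differed in their peaks. Tcf7 had peaks of both replicates at its start and inside the gene, Lef1 had a peak near its start in replicate 1 alone, and Ctnnb1 had no peak of either replicate in the gene or within 50 kb of it. With a gene-end peak defined as one within 1 kb of either annotated end of the gene, 1 of 3 had such a peak in both replicates, against 16.8% of all protein-coding genes. In replicate 1 the count was 2 of 3 (25.1% of all genes) and in replicate 2 it was 1 of 3 (22.2%). With so few genes these shares describe the 3 genes and set them apart from nothing.

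**Figure D1:**
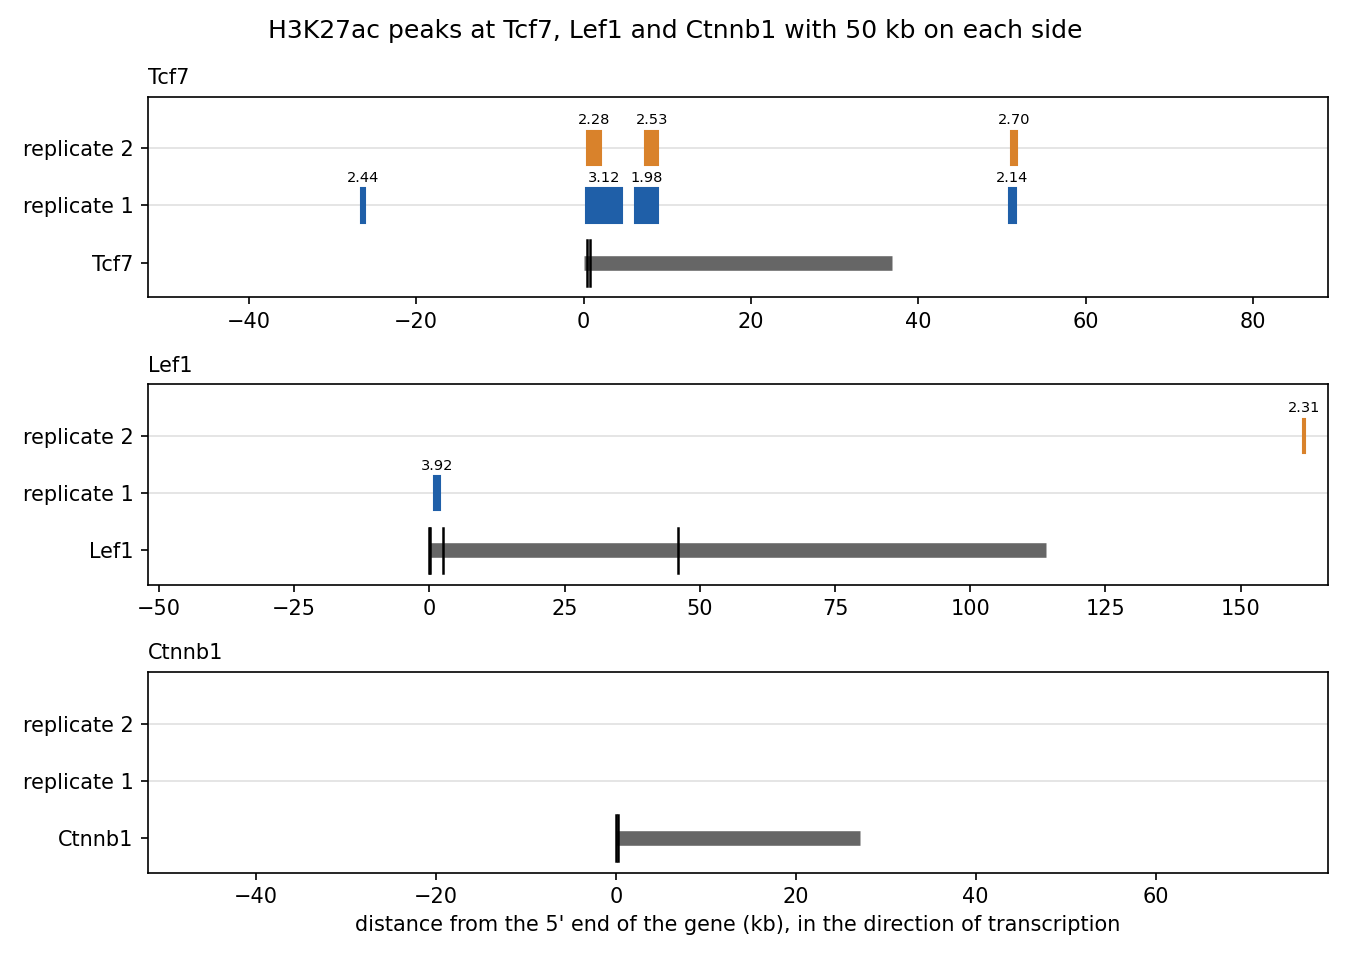
Peaks of replicate 1 (blue) and replicate 2 (orange) along each gene (grey bar, black ticks at listed transcript start sites), by distance in kb from the 5′ end of the gene, with the fold enrichment of each peak above it. Tcf7 has matching peaks at its start and inside the gene, Lef1 has a single peak of replicate 1 near its start, and Ctnnb1 has none.

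Tcf7 (chromosome 11, 52246527 to 52283383, minus strand) is the gene where the replicates met, and the DNA around its listed start sites is shown for that reason. RefSeq (GRCm38.p6) lists 2 start sites, at 52283014 and 52282595, each with a window from 250 bases before to 50 bases after it. Both windows lie inside the annotated gene, and its 5′ end at 52283383 is in neither. Capitals mark the bases under peaks of both replicates. In the window of the upstream site (chr11:52282965-52283264, minus strand) they cover 68 of 300 bases, and in that of the downstream site (chr11:52282546-52282845, minus strand) all 300. Below them stand the first windows of Lef1 (chr3:131110047-131110346, plus strand) and Ctnnb1 (chr9:120933150-120933449, plus strand), printed for comparison, which lie under no peak of either replicate and are therefore all in lower case.
Tcf7 upstream start: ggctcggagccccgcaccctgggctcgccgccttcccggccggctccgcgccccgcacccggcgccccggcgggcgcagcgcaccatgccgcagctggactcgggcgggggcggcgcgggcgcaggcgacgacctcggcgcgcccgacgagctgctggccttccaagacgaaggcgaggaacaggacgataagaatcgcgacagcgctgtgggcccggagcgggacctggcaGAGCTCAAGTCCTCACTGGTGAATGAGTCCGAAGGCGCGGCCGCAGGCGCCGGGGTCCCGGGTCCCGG
Tcf7 downstream start: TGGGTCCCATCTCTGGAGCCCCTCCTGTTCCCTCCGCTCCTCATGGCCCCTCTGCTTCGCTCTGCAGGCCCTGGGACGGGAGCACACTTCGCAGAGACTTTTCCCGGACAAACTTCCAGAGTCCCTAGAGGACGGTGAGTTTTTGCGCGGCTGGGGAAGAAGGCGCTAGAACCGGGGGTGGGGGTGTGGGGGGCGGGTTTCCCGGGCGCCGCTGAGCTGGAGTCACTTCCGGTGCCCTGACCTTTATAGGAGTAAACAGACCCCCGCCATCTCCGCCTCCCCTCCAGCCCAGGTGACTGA
Lef1 first start: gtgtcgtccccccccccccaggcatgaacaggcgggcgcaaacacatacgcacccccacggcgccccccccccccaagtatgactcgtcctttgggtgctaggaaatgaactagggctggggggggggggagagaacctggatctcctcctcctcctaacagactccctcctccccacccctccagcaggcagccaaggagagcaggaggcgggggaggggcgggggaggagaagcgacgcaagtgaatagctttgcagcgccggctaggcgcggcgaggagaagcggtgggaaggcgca
Ctnnb1 first start: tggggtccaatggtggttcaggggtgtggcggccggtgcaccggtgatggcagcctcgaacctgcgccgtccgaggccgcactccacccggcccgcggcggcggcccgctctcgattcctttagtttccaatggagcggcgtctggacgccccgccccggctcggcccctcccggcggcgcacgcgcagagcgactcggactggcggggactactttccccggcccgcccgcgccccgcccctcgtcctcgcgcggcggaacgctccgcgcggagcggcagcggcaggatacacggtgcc

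The start windows were searched on both strands for short letters of factors that act in early T cells. Both Tcf7 windows lie inside the annotated gene, so the DNA at and before its 5′ end was not searched. The letters of TCF-1 and LEF-1 themselves, CTTTGAA or CTTTGAT, were in none of the 8 windows listed for the 3 genes, and 8.65% of 32851 promoter windows of the same length held at least 1 of them. The E box CANNTG, read by E proteins, occurred once in each Tcf7 window, at bases 92 to 97 of the upstream one and 290 to 295 of the downstream one, counted from the 5′ end, and 72.3% of all windows held it. The letters TGGGAA, the core read by CSL, the DNA-binding partner of Notch, were in neither Tcf7 window, but in 3 of the 4 Lef1 windows, of which the first pair overlap and share 1 match. Of all windows 25.6% held them. An E box was in each of the 4 Lef1 windows. The Runx letters TGTGGT (16.8% of windows) were in none of the 8 windows, the GATA letters AGATAA (11.2%) were in the fourth Lef1 window, and the 2 Ctnnb1 windows held none of the letters searched. Matches of TGGGAA and CANNTG overlap in the third Lef1 window. A match of letters is not a binding site, and a window without one says nothing about the factor.

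The peak at the Tcf7 start ran from the start sites into the gene. In replicate 1 it reached from 52278777 to 52283053 (4277 bp), with a fold enrichment of 3.12 and a −log10 q of 2.19. In replicate 2 it reached from 52281252 to 52283032 (1781 bp), with a fold of 2.28 and a −log10 q of 0.917. Fold and q are values of the authors' peak caller, the fold being enrichment over the caller's background. Both peaks covered both listed start sites, and their upstream edges lay 21 bp apart, at 39 bp and 18 bp upstream of the first of these sites. The annotated gene extends further, and the peaks stopped 330 bp and 351 bp short of its 5′ end. The other edges lay 2475 bp apart, so the replicates matched at the start of the gene and not in how far the peak ran inward. The peak of replicate 2 lay wholly inside that of replicate 1 and made up 41.6% of it.

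The width of this peak was unusual in replicate 1. Of 12377 peaks in that replicate 24 (0.194%) were at least as wide, and of 9477 peaks in replicate 2 426 (4.50%) were at least as wide as its counterpart. Its height was less so. A fold at least as high was found for 9.90% of the peaks of replicate 1 and for 53.0% of those of replicate 2. The median width of all peaks was 615 bp and 561 bp, and the median fold was 2.17 and 2.31.

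A second pair of peaks lay inside Tcf7, with no listed start site under it. It reached from 52274488 to 52277199 in replicate 1 (2712 bp, fold 1.98, −log10 q 0.756) and from 52274478 to 52276044 in replicate 2 (1567 bp, fold 2.53, −log10 q 1.24). Here the edges nearer the 3′ end of the gene agreed to 10 bp and the other edges differed by 1155 bp. The peaks stood 5396 bp and 6551 bp downstream of the nearest listed start site. The overlap of 1557 bp was 57.4% of the first peak and 99.4% of the second. At 1.43% and 6.59%, few peaks of either replicate were as wide, but their folds were ordinary, since 67.9% and 35.0% of peaks were at least as high. Whether the interior peak lies in an exon or an intron was not determined, since exon positions were not used here.

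The regions of Tcf7 under peaks of both replicates were long compared with other genes. They measured 1781 bp and 1557 bp, stood 5207 bp apart and spanned 8545 bp. Over all 4264 such overlaps in the genome the median was 518 bp, and 3.85% and 5.86% were as wide as these. The median overlap made up 51.7% of the stretch under either peak, against 41.6% at the Tcf7 start and 57.2% inside the gene, so the replicates matched about as well at Tcf7 as elsewhere. In the gene with 1 kb on each side, peaks covered 6989 bp in replicate 1, 3348 bp in replicate 2 and 3338 bp in both. At least 3338 bp were found in 18 genes (0.0822%), Tcf7 included. At least 2 separate regions were found in 200 genes (0.914%). Per length, 9.06% of the Tcf7 gene lay under peaks of both replicates, a share reached by 472 genes (2.16%). Tcf7, with 36857 bp, is longer than the median protein-coding gene of 17169 bp.

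**Figure D2:**
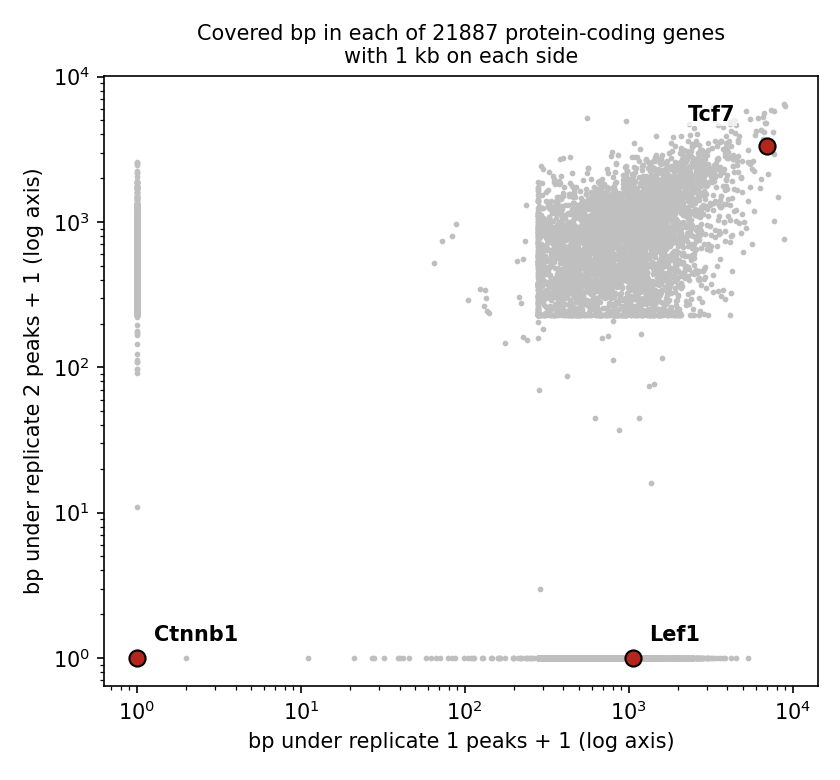
Bp under peaks of replicate 1 (horizontal, log axis, plus 1) and replicate 2 (vertical, log axis, plus 1) in each protein-coding gene with 1 kb on each side, with the 3 genes in red. Tcf7 lies at 6989 bp and 3348 bp, Lef1 at 1058 bp and 0 bp, and Ctnnb1 at 0 bp in both.

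The peaks around Tcf7 lay in neighbouring genes, and which gene they act on was not tested. A pair of peaks downstream of the gene, at 52231745 to 52232552 in replicate 1 (808 bp, fold 2.14) and 52231585 to 52232310 in replicate 2 (726 bp, fold 2.70), covered the listed start site of Skp1, a subunit of SCF ubiquitin ligases whose gene overlaps the 3′ end of Tcf7. They shared 566 bp and brought the bp under peaks of both replicates within 50 kb to 3904, of which 85.5% lay in Tcf7 itself. Upstream, replicate 1 alone had a peak of 457 bp (52309511 to 52309967, fold 2.44, −log10 q 1.28), 26128 bp from the gene and inside the long noncoding RNA gene Gm30217. No peak of replicate 2 lay between the Tcf7 start and 77206 bp upstream of the gene.

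None of the Tcf7 peaks had a q of at most 0.05 in both replicates. In replicate 1 the start peak met that threshold and the interior peak did not, and in replicate 2 neither did. The Skp1 peak met it in replicate 2 alone (−log10 q 1.44, against 0.911 in replicate 1). At q of at most 0.05 the shared coverage of Tcf7 was therefore 0 bp. Only 27.1% and 41.0% of all peaks met this threshold, and 2.64% of genes had gene-end peaks that met it in both replicates. The depth of the libraries is unknown, because the lists hold no read counts.

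**Figure D3:**
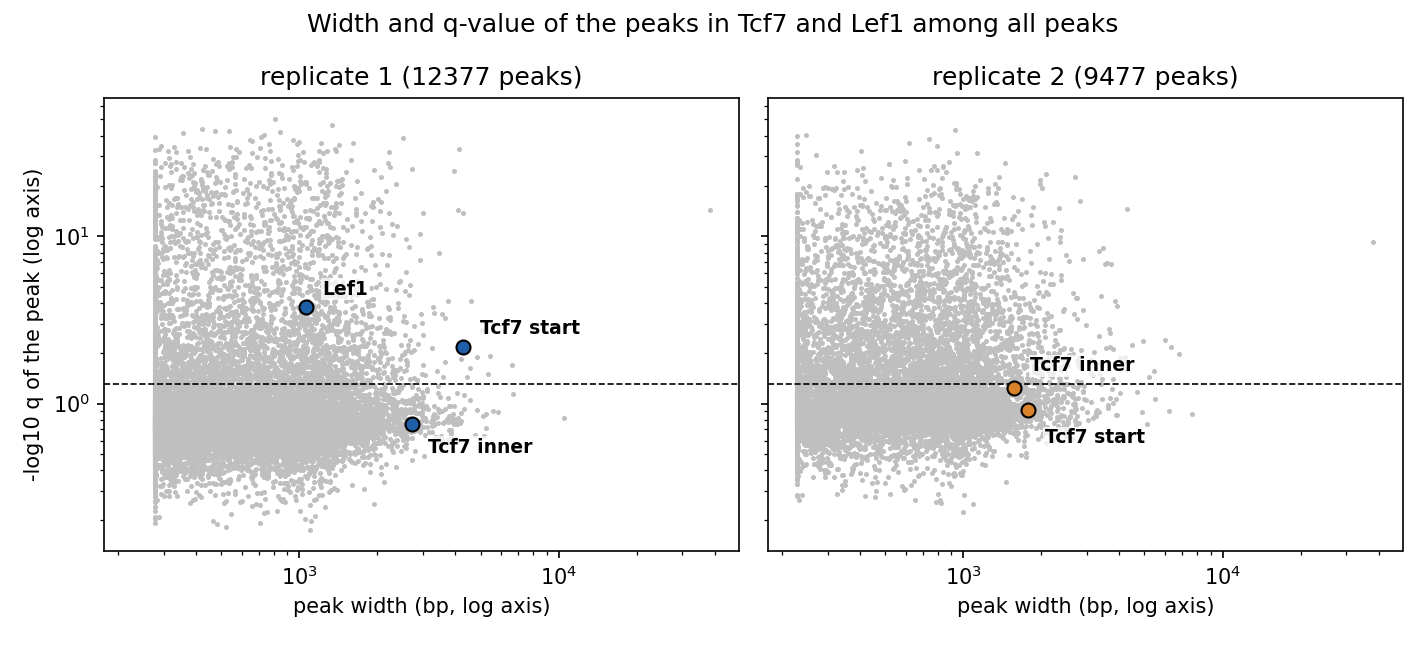
Width in bp (horizontal, log axis) and −log10 q (vertical, log axis) of every peak (grey) with those in Tcf7 and Lef1 coloured, and a dashed line at q of 0.05. The Tcf7 start peak of replicate 1 is 4277 bp wide and stands above the line, its counterpart of 1781 bp in replicate 2 stands below it, and the Lef1 peak stands at 3.77 in replicate 1 only.

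Lef1 (chromosome 3, 131110297 to 131224357, plus strand) had a single peak in the gene, in replicate 1. It reached from 131111184 to 131112241 (1058 bp), with a fold of 3.92 and a −log10 q of 3.77, and no peak of replicate 2 lay in the gene. It began 887 bp into the gene, just inside the 1 kb that defines a gene-end peak, and its nearest listed start site, 550 bp away, was the third, at 131112791. It covered none of the 4 listed start sites, so it lay downstream of the first pair (131110297 and 131110323) and upstream of the third. By fold and q the Lef1 peak was the strongest in any of the 3 genes: 4.37% of the peaks of replicate 1 had a fold as high and 9.82% a q as small. It was narrower than either Tcf7 peak of replicate 1, with 25.3% of peaks at least as wide.

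A strong peak without a partner was not rare. Of the 1215 peaks of replicate 1 with a q at least as small as that of the Lef1 peak, 384 (31.6%) overlapped a peak of replicate 2, and of the 455 among them at gene ends 265 (58.2%) did. Over all gene-end peaks of replicate 1 the share was 63.6%. Without chromosomes 6, 9, 14 and 17, where many peaks combine a low fold with a small p, the 3 shares were 32.7%, 61.7% and 64.4%. These shares were computed after the Lef1 peak was seen. A gene-end peak in replicate 1 alone was found at 1821 genes (8.32%). Whether the depth of replicate 2 left the Lef1 peak uncalled was not tested.

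In replicate 1 the next peaks lay 162148 bp below the gene and 340493 bp above it, where the median stretch between peaks on chromosome 3 was 145 kb. In replicate 2 the stretch without a peak that holds Lef1 was 434 kb long, against a median of 142 kb, and 24.9% of the stretches on the chromosome were as long. It ended at a peak of 400 bp (131271744 to 131272143, fold 2.31, −log10 q 1.02), 47387 bp beyond Lef1. That peak covered the listed start site of Hadh, an enzyme of fatty acid oxidation, and replicate 1 had no counterpart.

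Ctnnb1 (chromosome 9, 120933400 to 120960507, plus strand) lay in a long stretch without peaks in each replicate. In replicate 1 the nearest peaks stood 293194 bp and 80732 bp from the gene, in a stretch of 401 kb, and in replicate 2 they stood 361140 bp and 219794 bp away, in a stretch of 608 kb. The medians between peaks on chromosome 9 were 103 kb and 153 kb, and 14.5% and 14.6% of the stretches were as long. A gene with no peak of either replicate within 50 kb was common, at 26.7% of protein-coding genes. On chromosome 9, 28.4% of genes had a gene-end peak in at least 1 replicate, against 30.5% of all genes. Of the peaks on chromosome 9, 421 of 572 in replicate 1 and 341 of 385 in replicate 2 combined a −log10 p of 5 or more with a fold below 2, a combination that 643 and 531 peaks had in the whole lists. The stretches on chromosome 9 were measured between all its peaks, these included. In replicate 2 the nearest peak of this kind stood 219794 bp from Ctnnb1, the distance of the peak that ended its stretch. In replicate 1 the nearest stood 5.58 Mb away. The part of these peaks in the absence of a Ctnnb1 peak and in the lengths of the stretches was not tested. An absent peak is a statement about these lists and does not show that the histones at Ctnnb1 lack the mark.

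The genes whose coverage was most like that of each gene were found by the distance in log2(bp + 1) of replicates 1 and 2, over the gene with 1 kb on each side. For Tcf7 they were Plekha2 (7312 bp and 3296 bp, distance 0.069), Nfatc1, a calcium-regulated factor of T cells (7538 bp and 3230 bp, distance 0.12), and Rnf157 (6621 bp and 3694 bp, distance 0.16). Peaks of both replicates covered 2065 bp of Plekha2, 1456 bp of Nfatc1 and 2861 bp of Rnf157, each less than the 3338 bp of Tcf7, and none of the 3 had a gene-end peak in both replicates. For Lef1 they were Nfkbie, an inhibitor of NF-kappa-B, with the same 1058 bp and 0 bp, and Ccbe1 and Slc17a6 with 1060 bp and 0 bp each. For Ctnnb1, 12919 genes tied at 0 bp in both replicates, so the measure singles out no gene; by symbol the first were 0610010F05Rik, 0610040J01Rik and 1110002E22Rik. The measure has 2 values a gene and speaks of the amount of covered DNA alone.

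Of the 84 other genes of the pathway, 18 (21.4%) had a gene-end peak in both replicates, beside 16.8% of all genes. The median of bp covered by both replicates, in the gene with 1 kb on each side, was 0 for the list and for all genes. Another 6 had one in replicate 1 alone, as 8.32% of all genes did, 5 in replicate 2 alone and 55 in neither. With a peak in either replicate there were 29 (34.5%), beside 30.5% of all genes. The share without chromosomes 6, 9, 14 and 17 was 18.6% (13 of 70), beside 16.9% of all genes there. With q of at most 0.05 in both replicates there were 3 (3.57%), against 2.64% of all genes, namely Smarca4 and Tle3 on chromosome 9 and Kat5 on chromosome 19.

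**Figure D4:**
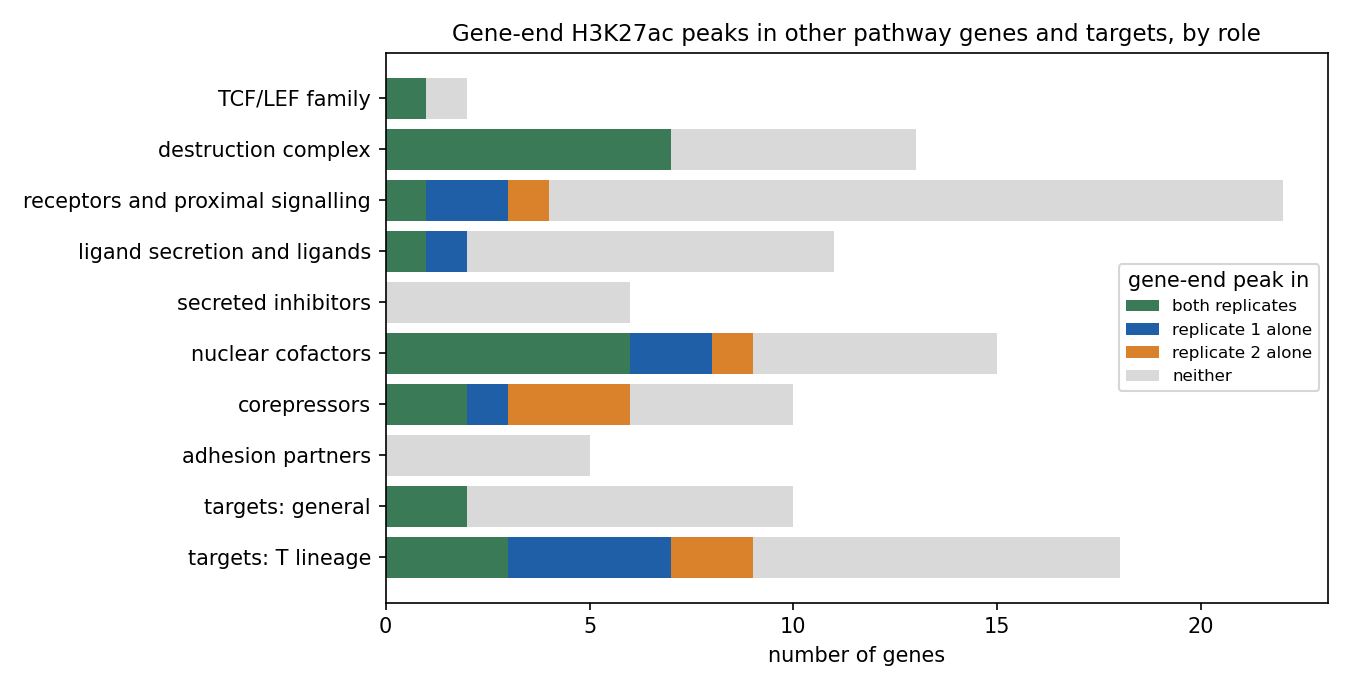
Number of genes of each role with a gene-end peak in both replicates, in replicate 1 alone, in replicate 2 alone or in neither. In the destruction complex 7 of 13 genes had one in both replicates, among secreted inhibitors and adhesion partners 0 of 6 and 0 of 5.

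By role, the counts below stand beside 16.8% of all genes with a gene-end peak in both replicates, and the roles were not tested against each other or against all genes. In the TCF/LEF family Tcf7l2, which encodes TCF-4, had 1765 bp and 1531 bp under peaks of the 2 replicates with 1296 bp in both, and Tcf7l1 had no gene-end peak. In the destruction complex, which marks beta-catenin for degradation, 7 of 13 genes (53.8%) had one in both replicates. The kinase genes were Csnk1a1 with 1958 bp under both, Gsk3b with 1767 bp and Csnk1d with 920 bp. The others were the phosphatase genes Ppp2r1a (1101 bp) and Ppp2ca (620 bp), the ubiquitin ligase gene Fbxw11 (814 bp), and Apc (563 bp), the scaffold. Axin1 and Axin2, the other scaffolds, lacked gene-end peaks, as did Btrc, Csnk1e, Gsk3a and Amer1. Peaks elsewhere in the gene covered 2677 bp of Btrc in replicate 1 and 2598 bp in replicate 2, with 1421 bp under both. Replicate 2 alone covered 1030 bp of Axin1 and 1256 bp of Csnk1e, and replicate 1 alone 742 bp of Axin2. Gsk3a and Amer1 had 0 bp in each replicate.

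Among nuclear cofactors 6 of 15 (40%) had a gene-end peak in both replicates. They were the acetyltransferase genes Ep300 (1239 bp under both), Kat5 (728 bp) and Crebbp (483 bp), the remodeller gene Smarca4 (939 bp), Tbl1xr1 (164 bp) and Chd8 (162 bp). Bcl9l, which links beta-catenin to Pygopus proteins, had one in replicate 1 alone, with 223 bp under both peaks elsewhere in the gene. Cdc73 also had one in replicate 1 alone, and Tbl1x in replicate 2 alone. Among corepressors 2 of 10 (20%) had one in both, Ctbp1 with 1009 bp and Tle3 with 29 bp, while Tle5 had one in replicate 1 alone and Tle4, Hdac1 and Hdac2 in replicate 2 alone.

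The remaining roles had 2 such genes in all. Of 22 genes of receptors and proximal signalling (4.55%) only Lrp6, a co-receptor for Wnt ligands, had a gene-end peak in both (54 bp under both), and none of the 10 Fzd receptor genes had one in either replicate. Dvl1 and Znrf3 had one in replicate 1 alone and Dvl2 in replicate 2 alone. Of 11 genes of ligands and their secretion (9.09%) only Wls (421 bp), which carries Wnt ligands to the surface, had one in both, and Porcn, which attaches their lipid, in replicate 1 alone. None of 6 secreted inhibitor genes and none of 5 adhesion partner genes had one in either. Of all genes 30.5% had one in at least 1 replicate.

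Of 28 genes listed here as targets of beta-catenin or TCF-1, 5 (17.9%) had a gene-end peak in both replicates, a share near the 16.8% of all genes. Whether each is a target in these cells was not tested. The 2 general targets were Jun, an AP-1 subunit (2288 bp under both), and Myc, a driver of growth (683 bp). The 3 T lineage targets were Tcf12, which encodes the E protein HEB (978 bp), Cd3e (32 bp) and Cd3g (peaks in both replicates with 0 bp in common). All 3 lie on chromosome 9, and they were also the 3 that had a q of at most 0.05 in both replicates. Without chromosomes 6, 9, 14 and 17 the count was 2 of 21 (9.52%), beside 16.9% of all genes there. Bcl11b, which seals commitment to the T lineage, lay under both peaks over 2441 bp, but only replicate 1 had a peak at its ends. Ptcra, Il7r and Notch3 likewise had one in replicate 1 alone, and Il2ra and Lat in replicate 2 alone.

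The labelled cell type was read against marker genes. Of 10 markers of double-negative thymocytes 3 (Dntt, Cd3e and Cd3g) had a gene-end peak in both replicates, beside 16.8% of all genes, and 6 had one in at least 1 replicate, beside 30.5%. Rag1, Rag2, Notch1 and Lck had no gene-end peak in either, and of these only Lck had peaks in the gene (316 bp under both). At Lck both replicates had a peak within 1 kb of a listed start site, which lay away from the annotated gene ends. Cd3e and Cd3g lie on chromosome 9, where many peaks combine a low fold with a small p. The peaks of both replicates shared 1965 bp at Dntt, 32 bp at Cd3e and 0 bp at Cd3g. Of 28 markers of B, myeloid, NK and innate, erythroid, stromal and later thymocyte cells, Nkg7 had one in both replicates, with peaks that did not overlap. The other 27 had no gene-end peak in either. Among these 27, the stromal marker Pecam1 had peaks inside the gene (675 bp and 229 bp, with 107 bp under both). Aire, also stromal, had 594 bp in replicate 1 alone.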

How the data were processed

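H3K27ac chromatin immunoprecipitation was sequenced in 2 replicates of sorted thymocytes. The submitters' processing notes name Bowtie2, MACS 1.4.2 and the build mm10, though the deposited lists have the broad layout of MACS2. Per the names of the deposited peaks, duplicate reads were removed and each sample was called separately. Neither cutoff nor control is named: not given in the sources used here. For each peak the authors deposited fold enrichment (a ratio), −log10 p and −log10 q, and a score derived from q that entered no step. Without counts, depth is unknown and no interval can be given.

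Peaks on assembled chromosomes (counted from 1) were set against RefSeq genes of GRCm38.p6, the same assembly, with Python 3.11.15, pandas 2.3.3 and numpy 2.4.6. Peaks overlapping by at least 1 bp counted as shared. Start sites and strands came from the RefSeq promoter table, which lists 17492 of 21887 protein-coding genes. All 84 pathway, 28 target and 38 marker entries matched by symbol. There is 1 condition, so no test between groups was made. Interval counts were checked on simulated peaks.

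Named genes were the 3 members, genes at their peaks, list genes with gene-end peaks in both replicates, and the 3 genes nearest in covered bp. List genes with a peak in 1 replicate or none, Skp1 and Gm30217 were named after their values were seen. Members and lists were chosen with earlier results of these data known. Alternatives were other q thresholds, the 10000 peaks of smallest p, a reciprocal overlap of 50%, single replicates, other windows and omitted chromosomes.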

Additional observations from a re-analysis of the deposited data

How the results depend on the processing

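For Ctnnb1 the bp under both replicates were 0 in all 8 alternatives. Stricter thresholds and the narrower flank could not have raised that value, and with 100 kb on each side replicate 1 has a peak, 80732 bp from the gene. For Tcf7 the 3904 bp under both replicates within 50 kb fell to 0 bp with q of at most 0.05 and with q of at most 1e-05, because fewer peaks entered, and was 2123 bp with a reciprocal overlap of 50%. Single replicates gave 4074 to 8254 bp for Tcf7 and 400 to 1058 bp for Lef1 (0 bp under both). The count of members with gene-end peaks in both replicates, 1 of 3, was 0 at either q threshold and with reciprocal overlap of 50%, 2 with a peak in either replicate, and 1 to 2 with single replicates. Replicate 2 is the list without the Lef1 peak, so leaving it out added Lef1.

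Counts of list genes are given with their share and that of all genes. With a peak in either replicate they were 29 pathway genes (34.5%) and 11 target genes (39.3%), against 30.5% of all genes. With q of at most 0.05 they were 3 (3.57%) and 3 (10.7%) against 2.64%, and with q of at most 1e-05 they were 2 (2.38%) and 2 (7.14%) against 0.731%. All of these genes except Kat5 lie on chromosome 9, where many peaks combine a low fold with a small p. With reciprocal overlap of 50% they were 11 (13.1%) and 2 (7.14%) against 9.90%. Without chromosomes 6, 9, 14 and 17 the target genes were 2 (9.52%) against 16.9%. Single replicates gave 23 to 24 pathway and 7 to 9 target genes (27.4% to 28.6% and 25% to 32.1%, against 22.2% and 25.1%), with 9 when replicate 2 was left out. The main counts were 18 (21.4%) and 5 (17.9%) against 16.8%. Within 1 kb of a listed start site, an alternative chosen after seeing the data, they were 1 member, 13 pathway genes (15.5%) and 7 target genes (25%) against 14.5%. Genes without a listed start site could not be called but are included in these shares. Of the 17492 protein-coding genes with one, 18.2% had such a peak, and the list shares on that basis were not computed.

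No paired analysis was possible because only 1 group has replicates. Depth is unknown, so an absent peak cannot be given an upper limit.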

Other observations

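Peaks were also counted at listed start sites in place of gene ends. Gata3, Bcl11b and Lck, 3 genes listed as T lineage targets, then had a peak within 1 kb of a start site in both replicates. None of them had a gene-end peak in both. Myc, which has none listed, dropped out of that count. These 4 genes were picked out after their values were seen.

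The flank of Tcf7 held further bp under peaks of both replicates beyond the 50 kb used above. With 100 kb on each side the bp under both replicates rose from 3904 to 4639. The number of peaks that make up the rise, their side and their nearest genes were not determined.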
